A study of Mus musculus with 16 samples.

Results

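Heart muscle cells conduct and time their beat through ion channels and gap junctions, and 9 genes of these families were followed here through cardiac differentiation of P19CL6 cells. The 9 genes were chosen by role, with earlier results of these data known. They are the calcium channel subunits Cacna1c, Cacna1g and Cacna1h, the potassium channel subunits Kcnj3, Kcnq1 and Kcnh2, and the connexins Gja1, Gja5 and Gjc1. They are 9 of the 18193 genes that have a probe set naming a single gene on these arrays, and 20 probe sets name them. Where several probe sets name a gene, the brightest on average was used. A probe set had to exceed a log2 value of 4 on at least 2 arrays to be tested, and a gene was called changed at an adjusted p under 0.05 with a difference of at least 1 log2 (limma, Benjamini-Hochberg adjustment over the 10802 genes tested). Of the 9 genes, 6 were tested and 3, Cacna1c, Kcnq1 and Gja5, were too dim.

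P19CL6 is a mouse embryonal carcinoma cell line that forms beating cardiac cells when it is cultured with dimethyl sulfoxide (DMSO). RNA was measured on 16 Affymetrix arrays in 6 groups. Growth cultures (n = 3) held undifferentiated cells without DMSO, passaged every 48 h, and the other groups had spent 4 (n = 3), 6 (n = 2), 8 (n = 3), 10 (n = 3) or 12 days (n = 2) in medium with 1% DMSO that was renewed every 48 h. Per the series' design the samples of a group were independent. All groups were whole cultures of 1 cell line, and cultures grown for the same days without DMSO are not among these groups, so an effect of DMSO and an effect of days in culture cannot be told apart. Values are deposited log2 intensities after GCRMA, a procedure that corrects background by probe sequence and normalizes arrays by quantiles. Probe sets differ in affinity, so levels were not ranked between genes; where 2 genes were set side by side, only the change of their difference between groups was used.

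Cacna1c encodes the pore of the L-type calcium channel, whose current starts contraction in working heart muscle. Cacna1g and Cacna1h encode pores of T-type channels, which open at more negative voltages and are prominent in embryonic heart and in pacemaker tissue. Kcnj3 encodes a subunit of the channel through which acetylcholine slows the heart, and Kcnh2 and Kcnq1 encode the pores of the rapid and the slow delayed rectifier, which end the action potential. Connexins form gap junctions: Gja1 is the main connexin of ventricular muscle, Gja5 is found in atria and the conduction system, and Gjc1 is the connexin of the earliest heart tube and of nodal cells.

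The 9 genes did not move as a group. Cacna1g and Kcnj3 fell by day 4 and stayed low through day 12. Kcnh2 fell by day 4, was back above its growth level at day 12 and had the widest swing between DMSO days, 4.88 log2 between days 4 and 12. Cacna1h rose only between days 8 and 10. Gjc1 rose by day 4 and stayed above growth. The chosen probe set of Gja1, high on every array, was called lower at day 10 alone, and other probe sets of Gja1 differed from it. Each of the 6 tested genes differed among the groups by the F test over all groups with a range of at least 1 log2, with adjusted p from 5.31e-08 (Cacna1g) to 0.0158 (Gja1), and 60.9% of all tested genes did so.

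**Figure D1:**
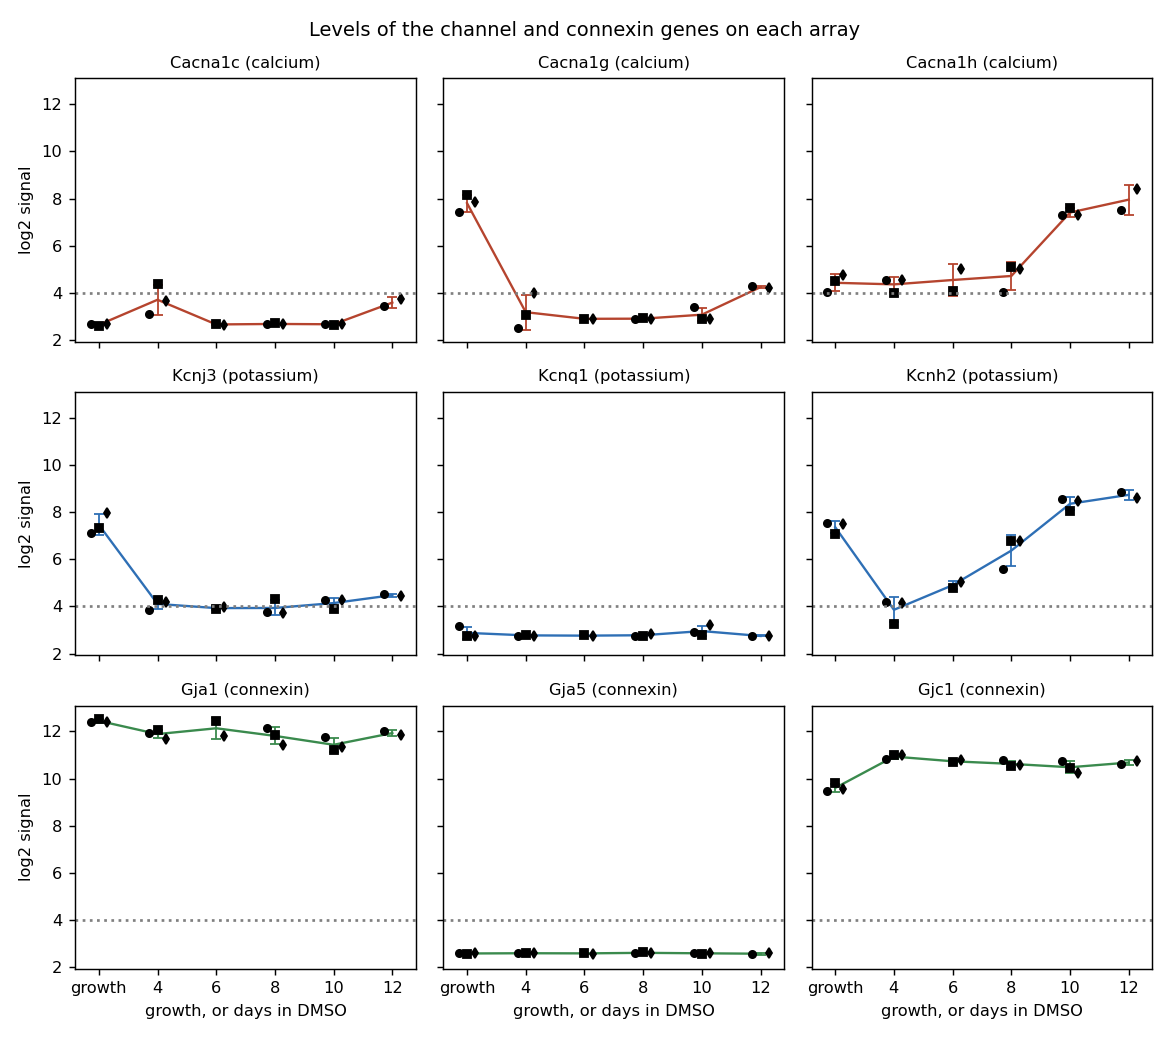
Log2 intensity (vertical axis) of the chosen probe set of each of the 9 genes in growth and at days 4 to 12 of DMSO (horizontal axis). Symbols are single arrays (circle, square and diamond for replicates A, B and C), lines join group means, bars are SD and the dotted line is the cutoff of 4. Cacna1g and Kcnj3 drop from above 7 in growth to near or under the cutoff, Kcnh2 drops and returns, Cacna1h rises from day 10, and Cacna1c, Kcnq1 and Gja5 lie under the cutoff on all arrays but 1.

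Against growth, 1 of the 6 tested genes was called higher and 3 lower at day 4, where 27% of all tested genes were called, 13.3% higher and 13.6% lower. The counts at day 6 were again 1 higher and 3 lower (26.8% of all genes called, 14% higher and 12.9% lower). At day 8 they were 1 higher and 2 lower (31%, 16% higher and 15% lower). At day 10 they were 1 higher and 3 lower (38%, 18.5% higher and 19.5% lower). At day 12 they were 3 higher and 2 lower (41.9%, 22.5% higher and 19.3% lower). The median difference of the 6 genes from growth was -1.96 log2 at day 4, -1.39 at day 6, -0.81 at day 8, -0.07 at day 10 and +0.28 at day 12, while the median over all tested genes was -0.0027 at day 4 and 0.0007 at day 12. These are bulk cultures, in which fewer cells of a type and less RNA per cell cannot be told apart. The 5 comparisons share the growth arrays.

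**Figure D2:**
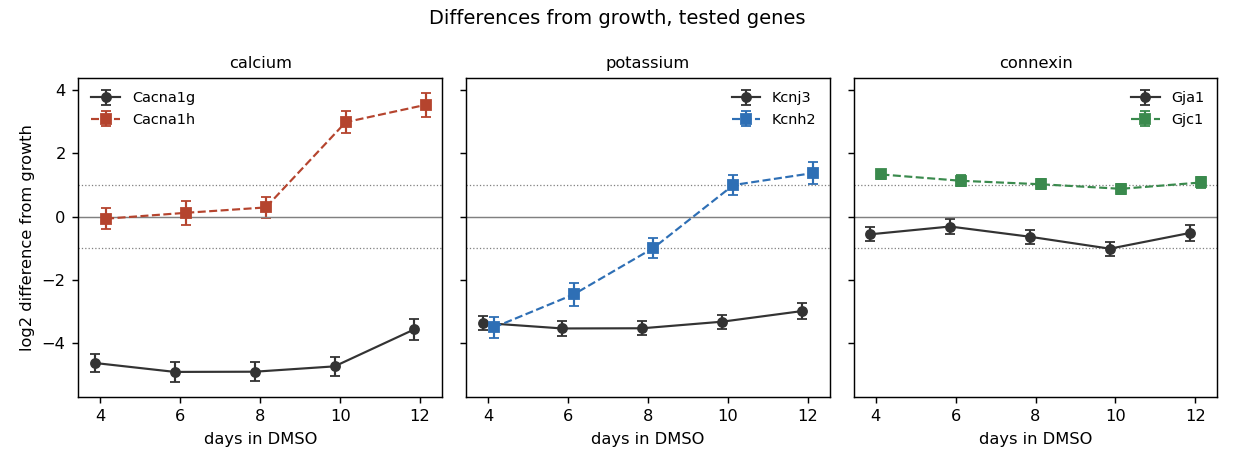
Difference of each DMSO day from growth in log2 (vertical axis) for the 6 tested genes, by day of DMSO (horizontal axis). Points are fitted differences, bars are 1 SE, and dotted lines mark a difference of 1 log2 either way. Cacna1g and Kcnj3 stay below 0 at every day, Kcnh2 crosses from -3.50 to +1.37, and Cacna1h leaves 0 at day 10.

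The T-type pore Cacna1g was highest in growth. It measured 7.43, 8.14 and 7.84 on the 3 growth arrays, a mean of 7.81 ± 0.35 (SD, n = 3). At day 4 the arrays gave 2.50, 3.07 and 3.98, and all arrays of days 4, 6, 8 and 10 lay under the cutoff of 4. The growth arrays did not overlap with any DMSO group. Since the DMSO arrays up to day 10 give only a bound, growth was at least 3.81 log2 above days 4, 6, 8 and 10, with a fitted difference at day 4 of -4.62 log2 (SE 0.29, adjusted p = 4.22e-08). At day 12 the values were 4.28 and 4.22, just over the cutoff, and remained 3.56 log2 below growth (SE 0.33, 11.8-fold, adjusted p = 9.15e-07). Day 12 was the only DMSO group of Cacna1g above the cutoff, but its difference from day 10 was not called (1.17 log2, SE 0.33, adjusted p = 0.0692). It was called without day 4 replicate A (adjusted p = 0.027), day 4 replicate C (adjusted p = 0.0135) or day 10 replicate A (1.34 log2, adjusted p = 0.0478). The difference from day 4 was called (1.06 log2, adjusted p = 0.0154), yet with day 4 under the cutoff the increase is bounded only as at least 1.19-fold, and the call was lost when values under 4 were set to 4 (0.25 log2, adjusted p = 0.231). It was also lost without day 4 replicate A (0.72 log2, adjusted p = 0.0571), day 12 replicate A (adjusted p = 0.0746) or day 12 replicate C (adjusted p = 0.0624).

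Cacna1h, the other tested T-type pore, was near the cutoff up to day 8 and rose by day 10. Its growth arrays measured 4.03, 4.51 and 4.75, a mean of 4.43 ± 0.37 (SD, n = 3). Day 4 gave 4.54, 4.00 and 4.54, day 6 gave 4.07 and 5.02, and day 8 gave 4.04, 5.09 and 5.02 for replicates A, B and C. These groups overlapped with growth and none was called different from it. On the day 10 arrays the gene measured 7.31, 7.62 and 7.29, a mean of 7.41 ± 0.18 (SD, n = 3), and on the day 12 arrays 7.51 and 8.40. No array of these later groups came within 2 log2 of any earlier array. The rise over growth was 2.98 log2 at day 10 (SE 0.34, 7.89-fold, adjusted p = 5.3e-06) and 3.53 log2 at day 12 (SE 0.38, 11.5-fold, adjusted p = 3.29e-06). The step fell between days 8 and 10, at 2.69 log2 (SE 0.34, 6.46-fold, adjusted p = 0.000193), and days 10 and 12 overlapped. The second probe set of Cacna1h was dim on every array, with group means from 2.24 to 2.27, so the rise rests on 1 probe set.

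The L-type pore Cacna1c stayed dim. Its brighter probe set measured 2.67, 2.60 and 2.67 in growth, 3.11, 4.36 and 3.66 at day 4, and 3.43 and 3.75 at day 12, and the arrays of days 6, 8 and 10 lay between 2.64 and 2.70. A single array, day 4 replicate B, exceeded the cutoff, so the gene was not tested. The day 4 and day 12 arrays were above all others, nearly all of them under the cutoff, where values were not compared. The second probe set averaged 3.22 at day 4 and between 2.70 and 2.87 in the other groups.

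Among the potassium channel genes, Kcnj3 and Kcnh2 both fell by day 4, after which they parted. Upstream sequences of both genes are shown because their RNAs fell together and then diverged. They come from the RefSeq promoter table (GRCm38.p6), which matched 5 of the 9 genes, Cacna1c, Kcnj3, Kcnh2, Gja1 and Gja5. Each is the 250 bases before the annotated start, 5′ to 3′ on the gene's strand, with motif matches in capitals. The windows lie at chr2:55435720-55435969 on the plus strand for Kcnj3 and chr5:24329592-24329841 on the minus strand for Kcnh2.
Kcnj3: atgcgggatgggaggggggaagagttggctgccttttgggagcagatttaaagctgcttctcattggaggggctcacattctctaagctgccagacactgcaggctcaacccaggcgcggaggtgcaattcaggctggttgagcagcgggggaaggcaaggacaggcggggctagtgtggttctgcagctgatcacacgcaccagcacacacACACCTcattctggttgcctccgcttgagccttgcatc
Kcnh2: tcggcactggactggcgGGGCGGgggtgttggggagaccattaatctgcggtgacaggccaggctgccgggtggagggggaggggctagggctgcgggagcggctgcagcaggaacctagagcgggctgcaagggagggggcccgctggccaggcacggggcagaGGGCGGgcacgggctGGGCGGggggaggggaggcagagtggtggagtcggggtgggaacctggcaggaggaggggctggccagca
In the Kcnj3 window the capitals mark the T-box motif AGGTGT on the opposite strand, 38 to 33 bases before the start. In the Kcnh2 window they mark 3 matches of the SP1 motif GGGCGG, which begin 233, 85 and 70 bases before the start. The GATA motif AGATAA and the NKX motif CAAGTG were searched on both strands too and gave no match in either window. The same holds for the TATA box, searched as TATAAA, and for the CArG box and the MEF2 site. No printed match overlaps another. Over 32851 windows of this length in the table, 11.8% held AGGTGT and 32.7% held GGGCGG. The windows are 58.4% G or C for Kcnj3 and 73.6% for Kcnh2, against a median of 52.4%. A match describes these letters and shows no binding.

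Kcnj3 was lost early. It measured 7.12, 7.32 and 7.95 in growth, a mean of 7.46 ± 0.44 (SD, n = 3). It measured 3.86, 4.27 and 4.19 at day 4, 3.88 and 3.98 at day 6, and 3.76, 4.31 and 3.74 for replicates A, B and C of day 8. Days 10 and 12 gave 4.26, 3.90 and 4.27, and 4.53 and 4.43. Every DMSO array was at least 2 log2 under the lowest growth array, and the DMSO days lay close to the cutoff with no called difference in the comparisons made between them. Kcnj3 was 3.36 log2 below growth at day 4 (SE 0.22, 10.2-fold, adjusted p = 6.45e-08) and 2.98 log2 below at day 12 (SE 0.25, 7.91-fold, adjusted p = 3.88e-07). At day 6, where both arrays were under the cutoff, growth was at least 11.0-fold higher.

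Another 2 of the 4 Kcnj3 probe sets passed the filter, and both were lower than growth at every DMSO day. They differ from the chosen probe set in what they show late. One probe set was called higher at day 12 than at day 10 (5.38 ± 0.05 against 3.62 ± 0.29, SD, n = 2 and 3), by 1.76 log2 in the fit over all 18970 probe sets that passed the filter (SE 0.24, adjusted p = 0.000742). With day 10 under the cutoff this is at least 2.6-fold. The chosen probe set differed by 0.34 log2 (adjusted p = 0.549) and the other by 0.13 log2 (adjusted p = 0.831) between the same days. The late increase of Kcnj3 was thus measured by 1 of 3 probe sets. Kcnj5, which encodes the partner of the Kcnj3 product in the atrial channel, was 4.12 log2 above growth at day 12 (6.93 ± 0.32 against 2.81 ± 0.08, SD, n = 2 and 3; adjusted p = 7.16e-06), at least 7.63-fold.

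Kcnh2 fell and then returned. The growth arrays measured 7.52, 7.08 and 7.48, a mean of 7.36 ± 0.25 (SD, n = 3). Day 4 gave 4.20, 3.24 and 4.13, day 6 gave 4.78 and 5.02, and day 8 gave 5.59, 6.76 and 6.76 for replicates A, B and C. Days 10 and 12 gave 8.54, 8.04 and 8.49, and 8.88 and 8.59. No group overlapped with the group before it, and days 10 and 12 lay wholly above growth. Against growth Kcnh2 was 3.50 log2 lower at day 4 (SE 0.32, 11.3-fold, adjusted p = 1.33e-06) and 2.46 log2 lower at day 6 (SE 0.36, 5.5-fold, adjusted p = 9.73e-05). At day 8 it was 0.99 log2 lower (SE 0.32, adjusted p = 0.0179) and at day 10 it was 0.995 log2 higher (SE 0.32, adjusted p = 0.0152), both short of the minimum of 1 log2 and so not called. The day 8 difference passed it without growth replicate B (-1.13 log2), day 8 replicate B (-1.18) or day 8 replicate C (-1.19), and that of day 10 without growth replicate A (1.08), growth replicate C (1.05) or day 10 replicate B (1.16). The day 8 difference also passed it after quantile normalization again (-1.07) and with a common median (-1.01). At day 12 it was called higher, by 1.37 log2 (SE 0.36, 2.59-fold, adjusted p = 0.00422). From day 4 to day 12 it gained 4.88 log2 (SE 0.36, 29.4-fold, adjusted p = 2.41e-07). The day 4 mean, 3.86, and replicate B of that day lay under the cutoff, so the sizes against day 4 are not exact. With values under 4 set to 4 the gain was 4.62 log2. Kcnh2 has 1 probe set, on which its course rests.

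The stepwise gain of Kcnh2 between neighbouring days was called from day 8 to day 10 (1.99 log2, SE 0.32, adjusted p = 0.00128). It was not called from day 4 to day 6 (1.04 log2, adjusted p = 0.0993), from day 6 to day 8 (1.47 log2, adjusted p = 0.224) or from day 10 to day 12 (0.38 log2, adjusted p = 0.656). Day 8 replicate A stood apart on these arrays: its correlations over all tested genes were 0.990 and 0.992 against the day 6 arrays, but 0.956 and 0.967 against replicates B and C. For Kcnh2 it measured 5.59, between day 6 and the other day 8 arrays. Without it, the steps from day 4 to day 6 (1.04 log2, adjusted p = 0.0295) and from day 6 to day 8 (1.86 log2, adjusted p = 0.00198) were called, day 8 was 0.60 log2 under growth, and the step from day 8 to day 10 was 1.60 log2 (adjusted p = 0.00301). For Cacna1h, whose replicate A was 4.04 against 5.09 and 5.02, the step from day 8 to day 10 without it was 2.35 log2 (adjusted p = 0.00072). Kcnq1, the slow delayed rectifier gene, measured between 2.73 and 3.20 on all arrays and was not tested.

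Among the connexins, Gjc1 rose by day 4 and stayed above growth. It measured 9.46, 9.80 and 9.55 in growth, a mean of 9.60 ± 0.18 (SD, n = 3), and 10.82, 10.99 and 10.99 at day 4, a mean of 10.93 ± 0.09 (SD, n = 3). Day 6 gave 10.69 and 10.78, day 8 gave 10.77, 10.53 and 10.57, day 10 gave 10.74, 10.47 and 10.24, and day 12 gave 10.61 and 10.75. All DMSO arrays lay above all growth arrays. The increase over growth was 1.33 log2 at day 4 (SE 0.15, 2.51-fold, adjusted p = 1.16e-05), 1.13 at day 6, 1.02 at day 8 and 1.08 at day 12 (SE 0.17, adjusted p = 0.000111). At day 10 it was 0.88 log2 (SE 0.15, adjusted p = 0.000241), under the minimum difference and not called. The day 8 difference was also under that minimum without day 8 replicate A (0.95 log2, adjusted p = 0.000454), growth replicate A (0.95) or growth replicate C (0.99). The second probe set of Gjc1 went from 8.66 ± 0.19 in growth to 10.13 ± 0.12 at day 4 (SD, n = 3) and was at 9.34 ± 0.04 at day 12 (SD, n = 2), so it was closer to growth late than the first. In the fit over all probe sets it was not called over growth at day 8 (0.89 log2) or day 12 (0.68 log2). From day 4 to day 12 it lost 0.79 log2 (adjusted p = 0.00212), short of the minimum difference.

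The chosen probe set of Gja1 was bright on every array and moved little. It measured 12.40, 12.54 and 12.40 in growth, a mean of 12.45 ± 0.08 (SD, n = 3). Day 4 gave 11.92, 12.05 and 11.69, day 6 gave 12.46 and 11.81, and day 8 gave 12.15, 11.85 and 11.43. Day 10 gave 11.77, 11.20 and 11.33, a mean of 11.43 ± 0.29 (SD, n = 3), and day 12 gave 12.01 and 11.85. Day 10 was the lowest group and day 6 overlapped with growth. The fall at day 10 was 1.01 log2 (SE 0.22, 2.02-fold, adjusted p = 0.00115), just past the minimum, and it passed under it without growth replicate B (0.97 log2), day 10 replicate B (0.90 log2) or day 10 replicate C (0.96 log2). At day 12 Gja1 was 0.52 log2 below growth (SE 0.24, adjusted p = 0.0799), not called.
Gja1: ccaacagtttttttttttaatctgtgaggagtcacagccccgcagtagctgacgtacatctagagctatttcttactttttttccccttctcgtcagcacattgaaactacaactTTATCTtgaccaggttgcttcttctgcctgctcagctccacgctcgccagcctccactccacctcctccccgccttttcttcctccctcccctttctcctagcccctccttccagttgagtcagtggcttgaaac
This window, chr10:56377050-56377299 on the plus strand in GRCm38.p6, is the 250 bases before the Gja1 start in the RefSeq table. It is shown beside those of the potassium channel genes as that of a gene that stayed bright. The capitals mark the GATA motif AGATAA on the opposite strand, 135 to 130 bases before the start, which 9.99% of the 32851 windows hold. It had no match of the other motifs, and its G and C content was 50.0%.

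The 6 probe sets of Gja1 did not give 1 course. At day 10, 4 of the 6 were called lower than growth in the fit over all probe sets: the chosen one, and others with differences of -1.57, -2.12 and -1.23 log2. At day 12 they split. A probe set at 11.77 ± 0.50 in growth and 10.20 ± 0.08 at day 10 (SD, n = 3) was back at 11.80 ± 0.51 at day 12 (SD, n = 2), a gain of 1.60 log2 over day 10 (SE 0.31, adjusted p = 0.0106). Another fell from 10.16 ± 0.21 in growth to 8.49 ± 0.12 at day 12, by 1.66 log2 (SE 0.39, adjusted p = 0.00261), and was also called lower at days 4 and 8. The dimmest was at 4.55 ± 0.16 in growth and 4.45 ± 0.02 at day 12. The fall of Gja1 by day 10 was therefore seen by most of its probe sets, while its level at day 12 depended on which was read. Gja5, the connexin of atria and conduction system, measured 2.54 to 2.64 on all arrays and was not tested.

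**Figure D3:**
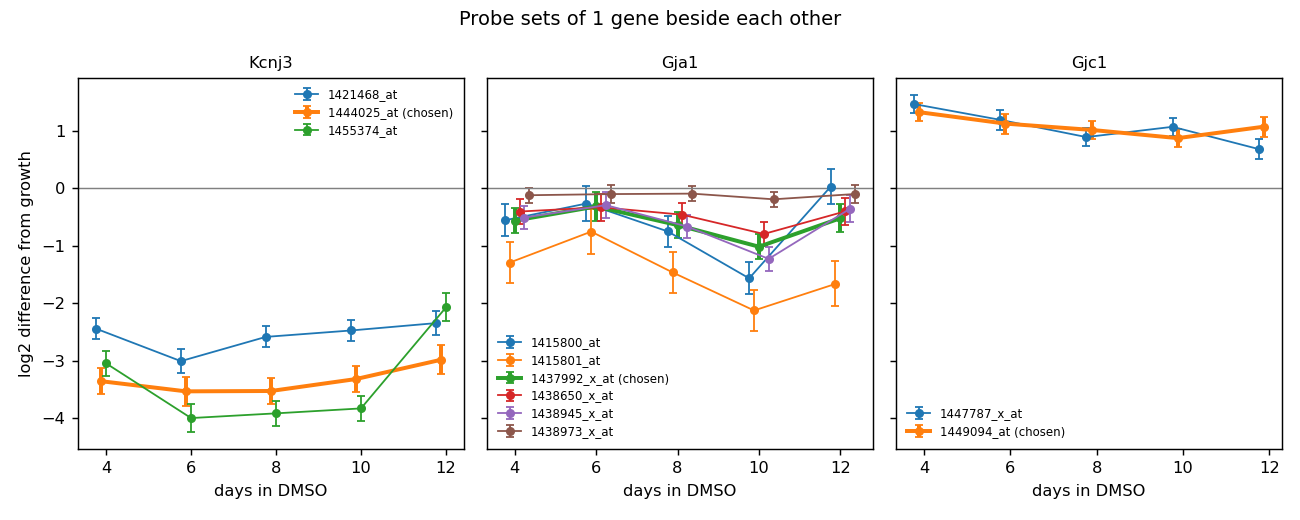
Difference from growth in log2 (vertical axis) by day of DMSO (horizontal axis) for each probe set above the filter of Kcnj3, Gja1 and Gjc1, the genes with more than 1. Points are fitted differences, bars are 1 SE, and the chosen probe set is the heavy line. At day 12 the Gja1 probe sets spread from -1.66 to +0.03 and the Kcnj3 probe sets from -2.98 to -2.07.

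Between neighbouring days few of the 6 genes changed. From day 8 to day 10, 2 were called higher, Cacna1h and Kcnh2, and none lower, where 7.81% of all tested genes were called, 4.62% higher and 3.19% lower. From day 4 to day 6 limma called 0 of the 6, with 1 at an unadjusted p under 0.05, against 6.13% of all genes called, 3.52% higher and 2.61% lower. From day 6 to day 8 it called 0, with 1 at an unadjusted p under 0.05, against 0.0185% of all genes, or 2 genes, both lower (613 without day 8 replicate A). From day 10 to day 12 it called 0, with 1 at an unadjusted p under 0.05, against 3.06% of all genes, 2.88% higher and 0.185% lower. From day 4 to day 12, 3 of the 6 were called higher, Cacna1g, Cacna1h and Kcnh2, against 32.2% of all genes called, 19% higher and 13.2% lower.

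Genes of the same role were set against each other within each array. The quantity was the log2 difference between the members of a pair, compared between the 3 growth arrays and the 5 arrays of days 10 and 12 by a two-sided exact permutation test. The smallest p that the 56 arrangements allow is 0.0179. Relative to Cacna1h, Cacna1g fell by 7.46 log2 (exact p = 0.0179, 0.0201 after Benjamini-Hochberg adjustment over 9 pairs). The day 10 arrays of Cacna1g and 1 of Kcnj3 lie under the cutoff, so the size of these differences is not exact. With values under 4 set to 4, the change of Cacna1g relative to Cacna1h was -6.91 log2. Relative to Kcnh2, Kcnj3 fell by 4.33 log2, and relative to Gjc1, Gja1 fell by 1.77 log2, both with the same exact p and adjusted p. In these 3 pairs all 5 late arrays lay on the same side of all 3 growth arrays, which the smallest p already states. The members of each pair were also called in opposite directions against growth from these growth, day 10 and day 12 arrays. Cacna1g and Cacna1h were so called at days 10 and 12, and Kcnj3 and Kcnh2 at day 12. Gja1 was called lower at day 10 and Gjc1 higher at day 12, so not on the same day. The test is therefore no independent support for those calls. The 6 pairs that hold an untested gene repeat the change of its partner against a dim probe set. Without any 1 growth array the 3 pairs had an adjusted p of 0.0536. Fewer arrangements are then possible, so the smallest p they allow is larger. The late arrays still lay apart from the growth arrays, so this rise follows from the smaller number of arrays.

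Channel genes outside the 9 were counted from 4 lists of the same families. Of 14 other calcium channel genes 7 were tested, and at day 12 limma called 4 higher than growth and 0 lower, with all 7 at an unadjusted p under 0.05. Over all 10802 tested genes 22.5% were called higher and 19.3% lower, and 6972 had an unadjusted p under 0.05. The highest rise was that of Cacna2d2, an auxiliary subunit, from 4.74 ± 0.54 to 10.87 ± 0.48 (SD, n = 3 and 2), 6.13 log2 (SE 0.48, adjusted p = 2.15e-07), after a level of 7.25 at day 4 and 4.86 at day 6. The L-type pore Cacna1d rose from a dim growth level of 2.85 to 5.87, at least 3.66-fold (adjusted p = 4.34e-06), and Cacna2d1 by 1.39 log2 (adjusted p = 0.00723). Cacna1b rose by 1.17 log2 (adjusted p = 0.0257), at least 1.65-fold. Cacnb2 and Cacng6 were called lower than growth at days 4, 6 and 8, as Cacna1g and Kcnh2 were at days 4 and 6. The median difference of the 7 at day 12 was 1.17 log2.

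Of 22 other potassium channel genes 7 were tested, and 2 were called higher and 3 lower at day 12 (22.5% and 19.3% of all tested genes), with a median difference of -0.39 log2. Kcna5, the pore of the ultrarapid atrial current, went from 2.78 in growth to 6.55 at day 10 and 6.96 at day 12, at least 7.77-fold above growth (adjusted p = 4.28e-06), and Kcnj5 was given above. The 3 that fell were leak channels of the K2P family: Kcnk1 from 8.66 to 2.90 (at least 25.2-fold, adjusted p = 2.87e-09), Kcnk2 from 7.26 to 3.44 (at least 9.57-fold, adjusted p = 3.92e-08) and Kcnk3 from 7.86 to 6.38 (1.48 log2, adjusted p = 0.000752). All 3 were called lower at every DMSO day, as Cacna1g and Kcnj3 were. Kcnj2, the classical inward rectifier of ventricular muscle, was dim in all groups, with means from 2.82 to 2.87.

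Of 18 other connexin and junction genes 11 had a probe set and 5 were tested, and 1 was called higher and 2 lower at day 12 (22.5% and 19.3% of all tested genes), with a median of -0.55 log2. A gene high in 1 group alone passes the filter through that group, as Gja3 did through day 12. These counts therefore depend on the filter, as do the shares over all tested genes. Gja3 was dim up to day 10 and reached 5.28 ± 0.16 at day 12 (SD, n = 2), at least 2.43-fold above growth (adjusted p = 1.35e-07). Gjb2 fell from 5.21 to 2.39, at least 2.31-fold, and Gjb5 from 4.84 to 2.16, at least 1.79-fold, both by every DMSO day. Of 12 sodium and pacemaker channel genes 3 were tested, and limma called 0 at day 12, with 2 at an unadjusted p under 0.05 and a median of -0.55 log2. Scn8a was called higher at day 4 alone (4.67 against 3.31 in growth).

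**Figure D4:**
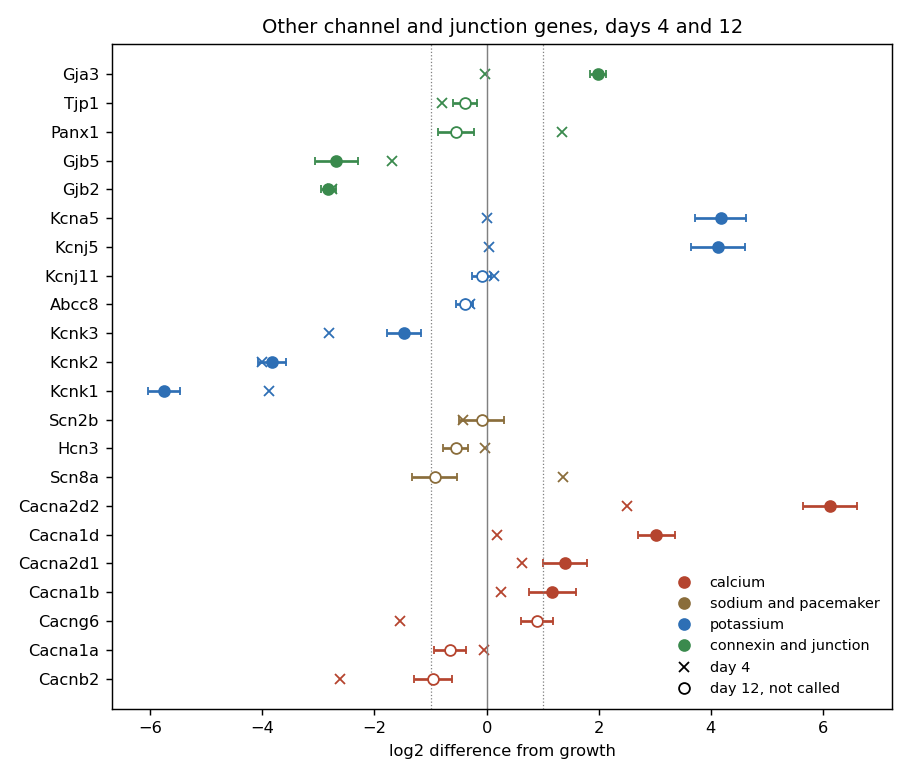
Difference from growth in log2 (horizontal axis) of the tested genes of the 4 other channel and junction lists (vertical axis), at day 12 (circles, bars 1 SE) and day 4 (crosses), coloured by list. Filled circles were called at day 12, and open circles were not. Cacna2d2, at +6.13, and Kcnk1, at -5.76, are the farthest from 0 in either direction.

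Markers of other cells moved with these genes. Pluripotency markers fell by day 4, as Cacna1g, Kcnj3 and Kcnh2 did. Of these markers 5 of 5 were called lower at every DMSO day, where 12.9% to 19.5% of all tested genes were. Kcnh2 did not stay low with them and was called higher than growth at day 12. The mean level of the marker list ran from 11.14 to 11.48 on growth arrays and from 6.11 to 7.63 on day 4 arrays. Cardiac muscle markers rose with Cacna1h and Kcnh2. Of 11, 10 were tested (Nppa was dim), and 0 were called higher at day 4, 2 at day 6, 6 at day 8 and 10 at days 10 and 12. Over all tested genes 13.3%, 14%, 16%, 18.5% and 22.5% were called higher at days 4, 6, 8, 10 and 12. The mean level of the cardiac list was 3.44 to 6.56 on the day 8 arrays and 8.83 to 9.10 on those of day 10. Myh6, a heart myosin, went from 4.85 at day 8 to 11.65 at day 10.

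Markers of other lineages were also called over the same days. At day 10, where 18.5% of all tested genes were called higher and 19.5% lower, 4 of 5 tested smooth muscle markers, 4 of 7 fibroblast markers, 2 of 6 endothelial markers, 2 of 3 extraembryonic endoderm markers, 2 of 2 blood markers and 4 of 4 tested pacemaker and conduction markers were higher than growth. Of the endothelial markers 1, Flt1, was lower. The mean level of the list on the growth and the day 10 arrays was 3.84 to 4.16 and 6.41 to 7.07 for smooth muscle, 2.50 to 2.75 and 5.76 to 6.20 for fibroblasts, and 3.78 to 4.06 and 4.54 to 5.16 for endothelium. It was 2.79 to 2.87 and 4.46 to 5.44 for extraembryonic endoderm, 2.57 to 2.75 and 7.29 to 7.88 for blood, and 2.54 to 2.67 and 6.22 to 7.50 for pacemaker and conduction cells. The defining markers Myh11 (smooth muscle), Tie1, Emcn and Sox18 (endothelium), Gata1 and Klf1 (blood) and all 5 skeletal muscle markers were too dim to be tested. So were Foxa2 and Sox7 (extraembryonic endoderm) and the neural markers Sox1, Pax6, Neurog1 and Elavl3. Among 3 tested neural markers at day 10, 1 was higher and 2 were lower, with list levels of 4.35 to 4.55 in growth and 3.72 to 3.99 at day 10. The 18S ribosomal control measured 8.04 to 8.69 on the day 12 arrays and 4.91 to 6.88 on the others. The part of these cells and of the RNA preparation in the courses of Cacna1g, Cacna1h, Kcnj3, Kcnh2, Gja1 and Gjc1 was not tested.

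For each tested gene the 3 genes with the most similar course were found as those with the smallest root mean square difference over the 16 arrays, after each was centred on its own mean. For Cacna1g they were Ehd3 (0.33 log2), the potassium channel Kcnk2 (0.42) and Tmem35a (0.42). For Kcnj3 they were Vsig10 (0.27), Gtsf1l (0.27) and Gca (0.28), and for Cacna1h Mab21l2 (0.38), Ntf5 (0.40) and B3gnt9 (0.40). For Kcnh2 they were Uchl1 (0.56 log2), which was 7.80 in growth, 4.20 at day 4 and 8.65 at day 12, Atp1b1 (0.59), a subunit of the sodium pump, and Ehd4 (0.59). Gja1 was nearest to Ssbp1 (0.19), Maoa (0.20) and Aimp2 (0.22), and Gjc1 to Akap13 (0.14), Epc1 (0.14) and Foxj3 (0.15). Genes that change little lie near each other by this measure, so the distances are not compared between members.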

How the data were processed

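RNA of 16 P19CL6 cultures was hybridized to Affymetrix arrays, and the deposited log2 values come from GCRMA, per the submitters' processing notes; version and log base are not given in the sources used here, and the base was read from the values, 0.86 to 15.9. They were used as deposited. Probe sets naming several genes or none were left out, as were those above 4 on fewer than 2 arrays, and each gene kept the probe set with the highest mean. limma 3.58.1 in R 4.3.3 was fitted with 1 mean per group over all arrays, 10 residual degrees of freedom, without a replicate block. On simulated data of 10802 genes for day 12 minus growth, 80% of changes of 1.5 log2 and 98% of changes of 3 log2 were recovered, with 6 false calls. The simulation drew normal values with 1 spread per gene and changed 100 genes of each size. In the data 41.9% of genes were called at day 12, so these rates need not hold there. Array number limits precision, most with 2 arrays at days 6 and 12, and p-values measure the spread between these cultures. Named were the 9 genes, up to 3 rises and falls per list at day 12 (all calls of a list with 4 or fewer) and the 3 nearest courses per gene; others were named after their values were seen. Members and lists were chosen with earlier results of these data known. Alternatives are given in the closing section.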

Additional observations from a re-analysis of the deposited data

How the results depend on the processing

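Of 63 results, 31 were kept in every setting run for them, at most 28. A difference was kept if its direction and its side of the threshold stayed. A count was kept if it stayed close to the main count, so single members could still change sides. The count of members called at day 10 against growth, 4, was kept while it ranged from 3 to 6. The count of genes called between days 6 and 8, 2 in all, was 1 with no filter or a common median, 8 after quantile normalization again, 4 with values under 4 set to 4, 752 with array weights, 14 with the replicate block and 0 when only those groups were fitted. From day 10 to day 12 the 331 calls became 142 with the filter at 6 and 121 in a fit of only those groups, which also gave 415 from day 4 to day 6 and 368 from day 8 to day 10. With no minimum difference, 5203, 4667, 5730 and 6496 genes were called at days 4, 6, 8 and 10 against growth, 1710 from day 8 to day 10 and 5590 from day 4 to day 12, and 5 of the tested members at day 8. Of the 9 genes, 1 was called from day 4 to day 6 with no filter (Cacna1c) and with array weights (Kcnh2), 1 from day 6 to day 8 with array weights, and 1 from day 10 to day 12 with values under 4 set to 4 (Kcnj3, then read from another probe set, which was the brightest after this change) and without probe sets ending in _x_at or _s_at (Gja1). With no filter Cacna1c was also called higher than growth at day 4 (1.07 log2, adjusted p = 0.00416). Its values lay under the cutoff on all arrays but 1.

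Leaving out 1 array in turn moved the genes called from 309 to 799 between days 4 and 6, 1 to 613 between days 6 and 8, 626 to 1079 between days 8 and 10 and 155 to 480 between days 10 and 12. These counts moved most without day 6 replicate B (383) or C (309) between days 4 and 6, day 8 replicate A (613) or day 4 replicate A (18) between days 6 and 8, and day 12 replicate C (155) between days 10 and 12. It moved the members called from 0 to 1 in each of these but days 8 to 10. The pair differences ranged from -7.67 to -7.30 for Cacna1g and Cacna1h, -4.59 to -4.15 for Kcnj3 and Kcnh2 and -1.85 to -1.69 for Gja1 and Gjc1. Over the other settings they ranged from -7.52 to -6.91, -4.46 to -4.04 and -1.88 to -1.59, and the smallest of the former pairs, -6.91 and -4.04, had values under 4 set to 4, the latter with that other Kcnj3 probe set. On day 12 arrays alone they were -7.09, -4.36 and -1.59, with exact p = 0.1, the smallest that 3 arrays against 2 allow. Called changes of members did not reverse. Uncalled ones near 0 did: Cacna1h at day 6 was -0.0172 with array weights, -0.0257 with the replicate block, -0.0822 without growth replicate A and -0.36 without day 6 replicate C, and at day 4 was 0.0945 without growth replicate C and 0.112 without day 4 replicate B, within ranges over left-out arrays of -0.36 to 0.60 and -0.27 to 0.11. Gja1 was 0.0301 at day 12 without probe sets ending in _x_at or _s_at, and 0.0077 at day 6 without day 6 replicate C, in a range of -0.64 to 0.0077. With the mean of its probe sets, Gjc1 was not called at day 8 (0.96 log2) or day 12 (0.88 log2). The cause was not tested.

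The labels do not say whether the replicate letters pair the arrays. Deviations from the group mean correlated at a median of 0.0632 over 35 same-letter pairs (-0.207 to 0.324), 13 of them over 0.1. Over other-letter pairs of different groups the median was -0.0334. With the replicate block, calls of members were the same in number in every comparison, and 4578 genes were called at day 12. The separate fit of all probe sets was added after seeing the data. Values under 4 limit the courses of Cacna1g and Kcnj3 to bounds, and a value under 4 at day 4 makes the size of the Kcnh2 swing inexact.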
